A study of Mus musculus with 12 samples.

Results

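The early comparison sets monocytes and macrophages from the bone marrow of 3 mice that carried MEC1 cells for 21 days against those of 3 mice without MEC1, one array per mouse, 6 of the 12 samples of the series. A transcript cluster, the probes that the array assigns to 1 transcribed locus, was tested if it lay above its own array's median on at least 3 of these 6 arrays. With the brightest cluster standing for each gene symbol, 11739 of the 19229 protein-coding genes on the array were tested, out of 30702 named genes of all kinds.

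All mice of the study, controls included, lack Rag2 and the common gamma chain (Rag2-/-γc-/-, BALB/c background), so that they have no T, B or natural killer cells of their own and accept human cells. MEC1 is a human cell line from a patient with chronic lymphocytic leukemia, a malignancy of B cells, and was given intravenously. Both groups were 11 weeks old at 21 days, which the study calls the early stage, and both had their cells isolated by magnetic separation. The study also holds 3 mice with MEC1 and 3 without at 31 days, aged 13 weeks, which enter here as part of the estimate of spread and as a later set of other animals.

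Marrow monocytes arise from myeloid progenitors, leave for the blood under the control of chemokine receptors, and turn into macrophages or dendritic cells in tissue. Macrophages take up dying cells and lipoproteins, export the cholesterol through ATP-binding cassette transporters and apolipoprotein E, recycle iron from old red cells, and sense microbes through Toll-like receptors and C-type lectins. In chronic lymphocytic leukemia such cells are known as nurse-like or tumor-associated cells that feed survival signals to the leukemic B cells.

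Identity genes of the labelled cells were bright on all 6 arrays. Lyz2 (lysozyme), Itgam (the integrin CD11b), Cd68 (a lysosomal glycoprotein of macrophages), Csf1r (the receptor for the growth factor CSF1), Adgre1 (a surface antigen of mature macrophages) and Ly6c2 (a surface marker of classical monocytes) lay above the array median in every mouse. All 6 had a negative change, from -1.57 for Cd68 to -0.32 for Ly6c2, and the groups overlapped in Ly6c2 alone. None passed the test described below, while after cyclic loess, an alternative scaling, Csf1r, Cd68 and Itgam passed (adjusted p = 0.0377, 0.0327 and 0.0340). Neutrophil genes were bright too, with Elane (neutrophil elastase) between 16.04 and 16.99 on the log2 scale. Red cell genes stood at levels given below with their change. The B cell genes Ms4a1 and Cd79a and the natural killer genes Ncr1 and Klrb1c were near or below the array median. Of the T cell genes Cd3e was as well, while Cd3d (4.25 to 5.30) and Cd3g (3.94 to 4.44) lay above it on 6 of 6 arrays. Of the endothelial genes Cdh5 was near it and Pecam1 above it, at 6.29 to 6.91. Xist stood between 14.33 and 16.17 on the 6 arrays, while the Y-linked Kdm5d, Eif2s3y and Uty stood between 3.44 and 4.65, near the array medians of 3.82 to 4.20. The groups overlapped in none of these genes, with Xist lower and the Y-linked genes higher in MEC1 mice. At 31 days Xist read 15.18, 15.75 and 15.54 without MEC1 and 5.49, 13.49 and 10.61 with it. Those arrays enter the estimate of spread, and the reason for these differences was not tested. RNA was taken from a bulk of cells, so fewer cells of a type and less RNA per cell cannot be told apart.

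The arrays also differed as a whole. The 4 bacterial hybridisation controls, added in equal amounts to every array, averaged 10.81 ± 0.087 without MEC1 and 11.91 ± 0.118 with it (log2 intensity, SD, n = 3 each), a difference of 1.10. Poly-A controls were higher by 0.643 in MEC1 mice, and the 30 clusters of mitochondrial transcripts had a difference of -0.682. Groups did not overlap in these 3 measures (exact two-sided permutation p = 0.1, the smallest that 3 against 3 mice allow). The array median was higher by 0.20 and the coding median had a difference of -0.32 (exact p = 0.2 for each). The part of these shifts in the changes that follow was not tested as a cause. Of the variance of the hybridisation-control level 92.1% lay between the 4 groups of the study. A fit with that level as a covariate called 2 rises and 0 falls among the coding genes (limma). In that fit 1319 of them (11.2%) had an unadjusted p under 0.05.

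Most coding genes that changed fell. Of the 11739 genes, 713 (6.07%) passed at an adjusted p under 0.05, of which 644 (5.49%) fell and 69 (0.588%) rose in MEC1 mice. The test was limma's moderated linear model on all 12 arrays, with p-values adjusted by Benjamini-Hochberg over the 33457 clusters tested, and every adjusted p below comes from it unless another fit is named. The median change of the falls was -1.13 on the log2 scale, and 62 of them were at least 2. The median of the rises was 0.88, and 2 were at least 2. Over all coding genes tested the median change was -0.16. In 708 of the 713 genes the 3 MEC1 arrays did not overlap the 3 control arrays, against 3643 (31.0%) of all coding genes tested. Named non-coding genes, by contrast, were mostly called upward, 441 of 6334 (6.96%) against 39 (0.616%) downward, and are not described further.

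The 3 MEC1 mice did not shift by the same amount. Against the mean of the controls, the median coding gene stood at -0.31 in MEC1 replicate 1, at -0.17 in replicate 2 and at -0.02 in replicate 3. The genes that fell had medians of -1.33, -1.08 and -0.89 in the same order. Replicate 3 was the MEC1 array closest to the controls in 63.7% of the falls, against 54.1% of all coding genes. Without it, 131 coding genes (1.12%) rose and 1158 (9.86%) fell. Counts dropped when another array was left out: 148 genes passed without MEC1 replicate 1, 180 without MEC1 replicate 2, 204 without control replicate 2 and 170 without control replicate 3, while 554 passed without control replicate 1. With the 6 arrays of 21 days alone, 182 (1.55%) fell and 16 (0.136%) rose.

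The direction of a change followed the level a gene had in control mice. The genes that fell had a median control level of 8.21 (quartiles 7.19 and 9.47), and those that rose had one of 4.47 (quartiles 4.0 and 6.04). Among the 843 genes at or below a control level of 4, where the array median lies, the median change was 0.25, and 17 rose and 0 fell. The filter bears on this range, since a gene below the array median on all 3 controls was tested only if its 3 MEC1 arrays lay above it, and 12 of the 17 rises were of that kind. They are 12 of the 69 rises in all. Between 4 and 6 the median was 0.03, with 34 rises and 30 falls among 3990 genes. From 6 to 8 it was -0.30 (10 rises, 253 falls of 3198) and from 8 to 10 it was -0.46 (3 rises, 242 falls of 2232). Above that the median stayed negative, at -0.46 from 10 to 12, -0.41 from 12 to 14 and -0.37 above 14, where 8 of 144 genes fell. When genes were placed by the control mice of 31 days instead, which share no array with the comparison, the medians of the same 7 ranges ran from 0.24 to -0.45. In a reading added after the data were seen, over all 19229 coding genes without the filter and placed in that way, the dimmest range (8426 genes) had a median of 0.20, and over the genes above the array median on all 3 control arrays of 31 days (410 in that range) it was 0.19.

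A second reading therefore set each gene against the 500 coding genes nearest to it in control level. The change relative to these neighbours kept its sign in all 644 falls and all 69 rises, with medians of -0.73 and 0.80. These signs were nearly fixed in advance. The medians by level ran from 0.25 to -0.46, while 636 of the falls and 65 of the rises were at least 1.5-fold. A relative change of at least 1 was found for 184 of the falls and 28 of the rises. Cyclic loess, which scales the arrays to each other by level before the fit, gave 456 falls (3.88%) and 122 rises (1.04%). Of the falls 368 were still called after it, and of the rises 51. It did not remove the shift with level in full. After it the medians ran from 0.06 at or below a control level of 4 to -0.36 above 14, where the deposited values gave -0.37. The split between rises and falls thus moved with the scaling, from 69 against 644 to 122 against 456, and quantile normalization gave 85 (0.724%) against 283 (2.41%).

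**Figure D1:**
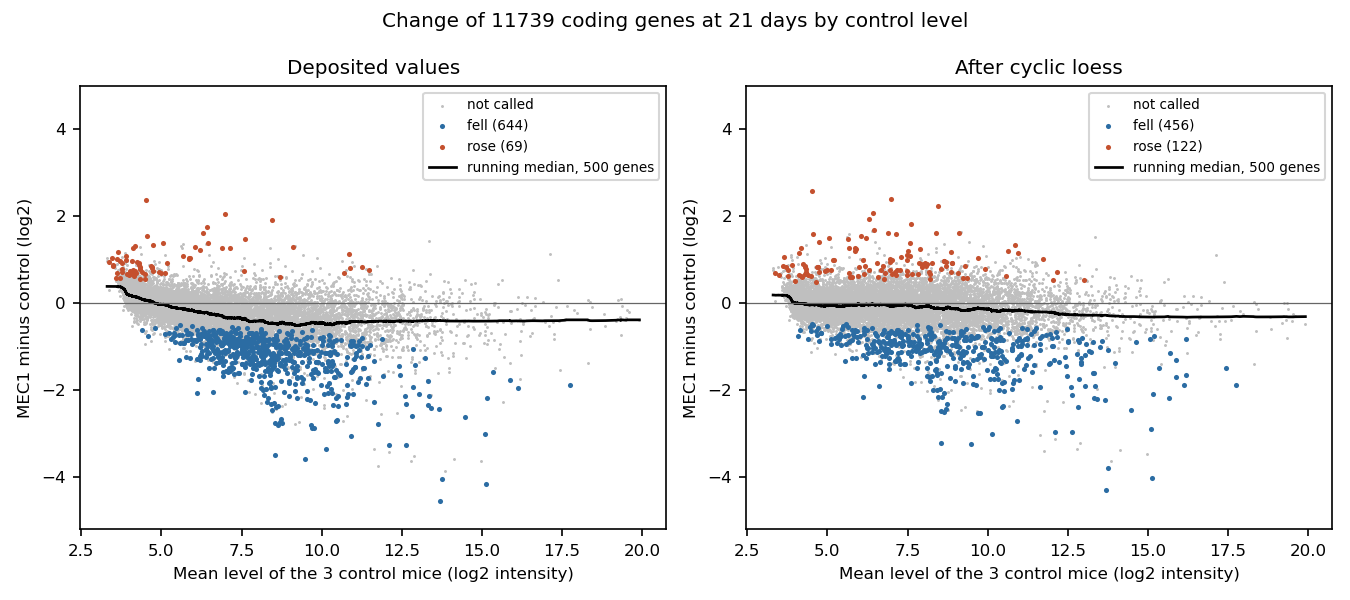
Log2 change of each tested coding gene (MEC1 minus control) against its mean log2 intensity in the 3 control mice, for the deposited values (left) and after cyclic loess (right, same x axis); blue points fell, red points rose, grey points were not called, and the black line is the running median over 500 genes. The line on the left runs from above 0 in dim genes to about -0.46 between levels of 8 and 12, where most falls lie, and on the right it lies closer to 0 but stays below it in bright genes.

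A set of 101 coding genes passed in the same direction in each of 12 fits: the main one, 6 that each left out 1 array, the 6 arrays alone, cyclic loess, quantile normalization, centring on the array median, and no filter on dim clusters. Of these, 95 fell and 6 rose. They include 10 of the 15 genes with the largest falls. In the gene lists that follow, the lowest count of falls over the 6 fits that left out 1 array was reached when MEC1 replicate 1, MEC1 replicate 2, control replicate 2 or control replicate 3 was left out. Their shares of falls are set beside the 5.49% of all coding genes, which takes no account of level. At control levels of 6 to 8, 8 to 10 and 10 to 12, 7.91%, 10.8% and 9.30% of coding genes fell.

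Thbs1, which encodes the matrix glycoprotein thrombospondin 1, stood at 14.96, 15.14 and 15.22 in the 3 controls and at 9.99, 11.95 and 10.88 in the 3 MEC1 mice (log2 intensity, as all levels below). It fell by 4.17 (SE 0.552, adjusted p = 0.00471), an 18-fold difference. The controls were within 0.3 of each other while the MEC1 mice spread widely, with replicate 1 lowest and replicate 2 highest. Fn1, the matrix protein fibronectin, was among the brightest genes at 18.08, 17.54 and 17.67 in controls and stood at 15.49, 16.13 and 15.99 in MEC1 mice, so that it fell by 1.89 (SE 0.283, adjusted p = 0.00735). Vegfa, the vascular growth factor, was tight in both groups, at 10.15, 10.12 and 10.01 against 8.57, 8.70 and 8.51, and fell by 1.5 (SE 0.131, adjusted p = 0.000806). The list of extracellular matrix genes and proteases also holds a rise. Vcan, which encodes the proteoglycan versican and is high in classical monocytes, was 6.88, 5.89 and 6.12 in controls and 7.67, 8.0 and 8.08 in MEC1 mice, and rose by 1.62 (SE 0.291, adjusted p = 0.0165). Of the 19 matrix genes tested, 3 fell (15.8%, against 5.49% of all coding genes) and 1 rose (5.26%, against 0.588%), with a median change of -0.24.

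Of 21 genes of sterol efflux and lipid transport tested, 6 fell (28.6% against 5.49% of all coding genes) and 0 rose, with a median change of -0.65, and 4 to 8 fell when 1 array was left out. Cyp27a1, the mitochondrial enzyme that turns cholesterol into 27-hydroxycholesterol, read 8.61, 8.25 and 8.77 in controls and 4.84, 4.89 and 5.42 in MEC1 mice. It fell by 3.49 (SE 0.353, adjusted p = 0.00145). Abca9, an ATP-binding cassette transporter of the lipid-carrying A family, had values of 10.35, 9.86 and 10.16 against 6.41, 6.81 and 7.11 and fell by 3.35 (SE 0.233, adjusted p = 0.000187). Apoe, the apolipoprotein that macrophages secrete with cholesterol, read 10.24, 10.60 and 10.48 against 7.69, 7.99 and 7.49 and fell by 2.72 (SE 0.214, adjusted p = 0.000411). In each of the 3 genes the highest MEC1 mouse was more than 2 below the lowest control. Abca6 and Abca7, transporters of the same family as Abca9, had changes of -1.74 and -1.45, and Cd36, a scavenger receptor for oxidised lipoprotein, fell by 1.5. Lrp1, the endocytic receptor that binds ApoE particles and is outside the list, was 10.53, 10.14 and 10.32 against 8.32, 8.46 and 7.99, and fell by 2.07 (SE 0.183, adjusted p = 0.000806). The main cholesterol exporters Abca1 and Abcg1 did not pass, with changes of 0.10 and -0.66. Of 19 genes of cholesterol synthesis, 0 passed in either direction in limma's test, with a median change of -0.08, and 1 had an unadjusted p under 0.05.

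C-type lectins read sugars on microbes and dying cells, and Fc receptors bind antibody. Of 19 C-type lectins tested, 6 fell (31.6%) and 0 rose, and 3 to 6 fell when 1 array was left out. Clec7a, known as Dectin-1, was bright in all mice, at 14.97, 15.07 and 15.25 in controls and 11.81, 12.42 and 12.02 in MEC1 mice, and fell by 3.01 (SE 0.385, adjusted p = 0.00420). Cd209a, a DC-SIGN homologue of monocyte-derived dendritic cells, went from 9.85, 9.54 and 9.08 to 5.54, 6.05 and 6.15 and fell by 3.58 (SE 0.339, adjusted p = 0.00111). Clec4a1, of the DCIR group that carries or pairs with inhibitory motifs, had 10.21, 9.70 and 9.16 against 6.48, 7.26 and 6.71 and fell by 2.87 (SE 0.377, adjusted p = 0.00457). These 3 lectins passed in all 6 fits that left out 1 array. Clec4a3, Clec4d and the mannose receptor Mrc1 fell by 1.83, 1.68 and 1.33, and passed in 2, 5 and 3 of those fits. Of 8 Fc receptors and their signalling genes, 3 fell (37.5%, against 5.49% of all coding genes). They are Fcgrt, the neonatal Fc receptor that recycles IgG (-1.39), the kinase Syk (-1.35) and the low-affinity receptor Fcgr3 (-1.19). Without 1 array 1 to 3 of the 8 fell. The high-affinity receptor Fcgr1 had a positive change of 1.36 that did not pass (adjusted p = 0.211).

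Among 20 Toll-like receptors and adaptors, 6 fell (30.0%) and 0 rose, and the median change was -0.90. The endosomal receptors for single-stranded RNA showed the largest differences. Tlr7 read 8.65, 8.99 and 8.59 in controls and 6.34, 6.43 and 5.48 in MEC1 mice and fell by 2.66 (SE 0.362, adjusted p = 0.00527), and it passed in all 6 fits without 1 array. Tlr8 read 8.74, 8.83 and 8.61 against 6.73, 6.83 and 7.24 and fell by 1.79 (adjusted p = 0.0172), passing in 2 of the 6 fits. The other falls belong to the response to lipopolysaccharide, with the co-receptors Cd14 and Ly96 lower by a log2 change of -1.26 and -1.58, the adaptor Ticam2 by one of -1.39 and the kinase Irak2 by one of -1.39. The receptor itself, Tlr4, had a change of 0.16, and the shared adaptor Myd88 one of 0.85, neither past the threshold. When MEC1 replicate 1, MEC1 replicate 2, control replicate 2 or control replicate 3 was left out, 1 of the 20 genes fell, which in each case includes Tlr7.

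Signalling through cyclic AMP activates the transcription factor CREB, whose known targets include a set of kinases, nuclear receptors and regulators that respond quickly. Of 21 CREB-responsive genes tested, 8 fell (38.1%) and 0 rose, 20 had a negative change, and the median was -0.69. This list, like the others, was written with earlier results of these data known, so its share of falls describes chosen genes. Sik1, a kinase that CREB induces and that in turn restrains CREB's co-activators, was 11.24, 10.92 and 10.60 in controls and 7.5, 7.89 and 8.20 in MEC1 mice. It fell by 3.06 (SE 0.296, adjusted p = 0.00116). Irs2, the insulin receptor adaptor, had 12.48, 12.69 and 12.71 against 9.02, 9.48 and 9.61 and fell by 3.26 (SE 0.237, adjusted p = 0.000238). Thbs1 is on this list as well. All 3 passed in the 12 fits named above, and they make up the 3 members that still fell when MEC1 replicate 1, MEC1 replicate 2, control replicate 2 or control replicate 3 was left out. Nr4a1, an orphan nuclear receptor needed for non-classical monocytes, went from 13.88, 14.89 and 14.62 to 10.65, 12.63 and 12.28, with MEC1 replicate 1 far below the others, and fell by 2.61 (SE 0.564, adjusted p = 0.0316). The other called members were the clock gene Per1 (-1.75), the G protein regulator Rgs1 (-1.72), the kinase Sik3 (-0.78) and the inhibitor of differentiation Id3 (-0.69). Crem, itself an early CREB target, and the factor Creb1 had changes of -0.24 and 0.02 and did not pass.

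The broader immediate-early genes, induced by many stimuli, held 4 falls among 25 tested (16.0%), with 23 negative changes and a median of -0.87. Besides Nr4a1 these were Fosl2, a subunit of the AP-1 factor, which fell by 2.09, Klf4, a factor of monocyte differentiation, which fell by 1.79, and the anti-proliferative gene Btg2, which fell by 1.48. The list's median differed between mice, at -1.47 in MEC1 replicate 1, -0.67 in replicate 2 and -0.42 in replicate 3. Over the fits that left out 1 array the count of falls ran from 0 to 6 (limma, and in the 4 fits with 0 calls 8 to 11 had an unadjusted p under 0.05).

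**Figure D2:**
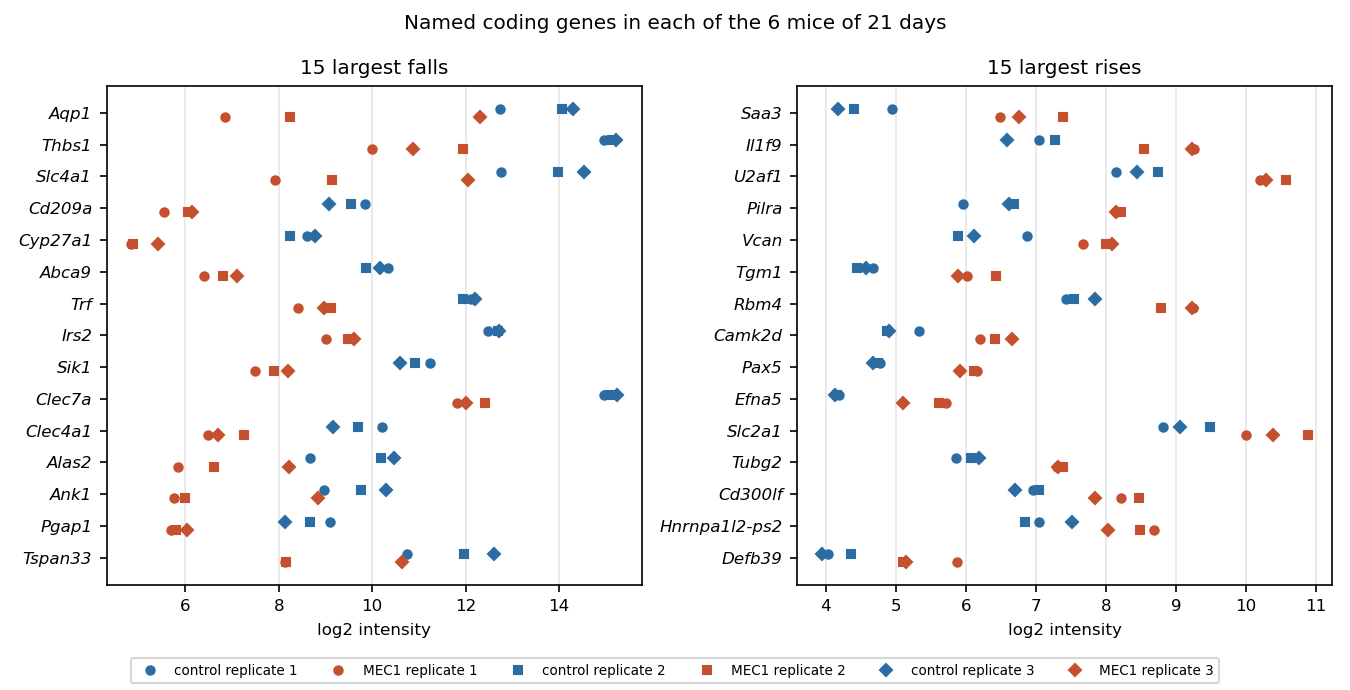
Log2 intensity of the 15 coding genes with the largest called falls (left) and the 15 with the largest called rises (right) in each mouse at 21 days; blue marks are the 3 control mice, red marks the 3 MEC1 mice, and the shape gives the replicate number. By the rule that chose these genes their groups do not overlap, and in the red cell genes Aqp1, Slc4a1, Alas2, Ank1 and Tspan33 MEC1 replicate 3 lies nearer to the controls than the other MEC1 mice.

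Chemokines and their receptors held 6 falls among 22 tested (27.3%) and 0 rises, with 3 to 7 falls when 1 array was left out. Ccl6, a macrophage chemokine of the CC family, was 12.48, 12.78 and 13.18 in controls and 10.04, 10.24 and 10.36 in MEC1 mice, and fell by 2.60 (SE 0.248, adjusted p = 0.00111). Its neighbour Ccl9 fell by 2.2 (SE 0.295, adjusted p = 0.00492). Both passed in all 6 fits that left out 1 array, as did Cx3cr1, the fractalkine receptor of non-classical monocytes, which read 9.93, 10.16 and 10.77 against 8.93, 8.76 and 8.48 and fell by 1.56 (adjusted p = 0.0101). Ccl3, an inflammatory chemokine, and Cxcr4, the receptor that holds leukocytes in the marrow, had changes of -2.43 and -1.96, each passing in 1 of the 6. The decoy-like receptor Ccrl2 fell by 1.31. Ccr2, which guides classical monocytes out of the marrow, had a change of -0.52 that did not pass (adjusted p = 0.302).

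Genes that mark monocyte and macrophage states changed in part. In the non-classical monocyte list, 5 of 14 fell (35.7%, against 5.49% of all coding genes), namely Nr4a1, Clec4a3, Cx3cr1, Cd36 and the integrin Itgal (-1.39). In the same list 1 rose (7.14%, against 0.588%), the phosphatase Dusp16 (1.02). The median change was -0.52, and -0.02 relative to genes of similar control level. Falls in this list numbered 1 without MEC1 replicate 1, 2 without MEC1 replicate 2, control replicate 2 or control replicate 3, and 5 in the other 2 such fits. Of 15 genes of resident marrow macrophages, 5 fell (33.3%), and 4 or 5 did so in each fit that left out 1 array. They are Trf, Apoe, Slc11a1, Mrc1 and Maf, a factor of macrophage maturation that was 6.47, 6.61 and 6.78 in controls and 5.25, 5.36 and 5.47 in MEC1 mice and fell by 1.26 (SE 0.179, adjusted p = 0.00603). The other members of that list, among them C1qa, Vcam1, Axl, Siglec1 and Hmox1, did not pass. In the classical monocyte list 2 of 14 fell (14.3%), Thbs1 and Fn1, and 1 rose (7.14%), Vcan. For the identity list 3 of 20 fell (15.0%), Cd14, Fcgr3 and the protease Ctss, with a median change of -0.87 and 18 negative changes. Its count of falls was 7 after cyclic loess and 1 with the 6 arrays alone. It was 0 without MEC1 replicate 1, MEC1 replicate 2, control replicate 2 or control replicate 3 (limma, with 8 to 11 negative changes at an unadjusted p under 0.05). Of 19 genes of alternative activation, Mrc1 and Vegfa fell (10.5%, and 1 or 2 falls without 1 array), and the median change was 0.02.

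Among costimulators and checkpoint ligands 2 of 14 fell (14.3%, against 5.49% of all coding genes), and 1 or 2 without 1 array. Cd86, which engages CD28 and CTLA-4 on T cells, was 11.55, 10.33 and 10.44 in controls and 8.29, 8.90 and 8.19 in MEC1 mice, and fell by 2.31 (SE 0.356, adjusted p = 0.00848). Its partner Cd80 and the checkpoint ligand Cd274 had changes of -0.13 and 0.39 and did not pass. Tnfrsf14, a receptor that engages the checkpoint BTLA, fell by 1.60. Cd83, a marker of activated antigen-presenting cells, read 5.59, 5.94 and 6.84 against 3.78, 4.08 and 4.34 in its brighter cluster and fell by 2.06 (adjusted p = 0.0077), but a second cluster of the gene had a change of -0.40 that did not pass (adjusted p = 0.12). Of 12 genes of MHC class II presentation 1 fell (8.33%), Ctss (0 or 1 without 1 array), and of 15 of class I 0 passed (limma, 1 at an unadjusted p under 0.05). Type I interferon genes held 0 calls among 28 (limma), with a median of -0.20. There 8 had an unadjusted p under 0.05, all with negative changes, and 7 fell when MEC1 replicate 3 was left out. Among NF-kB subunits, inhibitors and targets 3 of 21 fell (14.3%), Cd83, the kinase Ikbkb and Ptgs2 (cyclooxygenase 2), and 1 rose (4.76%), Traf1. Without 1 array 1 to 4 fell. After cyclic loess Traf1 did not pass (adjusted p = 0.0526).

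Paired myeloid receptors went both ways. Of 22 tested, 3 fell (13.6%, against 5.49% of all coding genes) and 2 rose (9.09%, against 0.588%), with a median change of -0.02. When 1 array was left out, 2 or 3 fell and 2 rose. The 3 falls and 1 of the rises belong to the CD300 family on chromosome 11. Cd300a, an inhibitory receptor for phosphatidylserine, read 9.93, 10.04 and 10.00 in controls and 7.93, 8.37 and 8.03 in MEC1 mice and fell by 1.88 (SE 0.241, adjusted p = 0.0042). Cd300lb and Cd300lg fell by 1.68 and 1.34. Cd300lf, another inhibitory member, had 6.96, 7.04 and 6.70 against 8.21, 8.47 and 7.85 and rose by 1.28 (SE 0.203, adjusted p = 0.0101). Pilra, an inhibitory receptor of myeloid cells, also rose, from 5.96, 6.69 and 6.62 to 8.15, 8.22 and 8.15, by 1.75 (SE 0.275, adjusted p = 0.00964). The opposite changes of Cd300a and Cd300lf held in all 12 fits.

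Iron handling and red cell genes require a separate look at each mouse. Trf, which encodes the iron carrier transferrin, was 12.12, 11.94 and 12.21 in controls and 8.42, 9.12 and 8.96 in MEC1 mice and fell by 3.26 (SE 0.302, adjusted p = 0.00103). Slc11a1, known as NRAMP1, which pumps iron out of phagosomes, had 8.44, 7.72 and 8.44 against 6.56, 6.46 and 6.52 and fell by 1.69 (SE 0.239, adjusted p = 0.00603). In both genes the 3 MEC1 mice lay close together. Cp, ceruloplasmin, which oxidises exported iron, rose by 1.19 from a level below the array median (3.67, 3.62 and 3.62 in controls, 5.04, 4.88 and 4.55 in MEC1 mice), and was tested only because its MEC1 arrays lay above it. The transferrin receptor Tfrc, the ferrireductase Steap3 and the iron-sensing aconitase Aco1 fell by 2.17, 1.48 and 0.88. The first 2 are also prominent in red cell precursors, and MEC1 replicate 3 was the highest of the MEC1 mice in both. Of 20 genes of iron handling tested, 5 fell (25%) and 1 rose (5%), against 5.49% and 0.588% of all coding genes, and 2 to 7 fell when 1 array was left out.

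Erythroid genes had the lowest median of all lists, at -2.77 over 22 tested genes, each with a negative change and an unadjusted p under 0.05, and 8 of them passed after adjustment (36.4%). The globin genes Hba-a1 and Hbb-bs had no named cluster and are not among them. Hbb-bh2, a globin gene outside the tested list, was called upward. Slc4a1, the band 3 anion exchanger of the red cell membrane, was 12.75, 13.98 and 14.53 in controls and 7.92, 9.14 and 12.06 in MEC1 mice and fell by 4.05 (SE 0.839, adjusted p = 0.0276). Aqp1, a water channel of red cells and endothelium, read 12.73, 14.07 and 14.31 against 6.86, 8.25 and 12.32 and fell by 4.56 (SE 1.06, adjusted p = 0.0384). Alas2, which starts heme synthesis in erythroblasts, had 8.67, 10.19 and 10.46 against 5.85, 6.62 and 8.23 and fell by 2.87 (SE 0.592, adjusted p = 0.0273). MEC1 replicate 3 was close to the lowest control, replicate 1, in all 3 genes. The list's median change was -3.93 in MEC1 replicate 1, -3.57 in replicate 2 and -0.76 in replicate 3. Without MEC1 replicate 3, 22 of 22 genes fell, and without MEC1 replicate 1, MEC1 replicate 2, control replicate 2 or control replicate 3, 0 did (limma, with 19 to 21 at an unadjusted p under 0.05). The other called members were the membrane skeleton genes Ank1, Sptb, Add2 and Epb42 and the porphyrin carrier Tspo2. Red cell gene levels thus differed from mouse to mouse in both groups, and their part in the changes of other genes was not tested. Trf, Irs2, Cyp27a1, Abca9 and Thbs1 differed in pattern from these genes, with MEC1 replicate 3 within the range of the other MEC1 mice or at most 0.6 above them.

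GATA factors drive erythroid genes through the letters AGATAA on either strand. Of the 22 erythroid genes, 16 have a RefSeq promoter entry (GRCm38.p6), and 7 of these (43.8%) hold the letters within the 250 bases before the gene's start, against 779 of 9653 tested coding genes with an entry (8.07%) and 9.99% of all 32851 windows. The pieces from 4 of them are shown because they belong to genes of different function in the group that differed most from mouse to mouse, and the capitals mark the match or its reverse complement.
Alas2, chrX:150547311-150547356, plus strand: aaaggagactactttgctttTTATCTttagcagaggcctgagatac
Epb42, chr2:121037078-121037123, minus strand: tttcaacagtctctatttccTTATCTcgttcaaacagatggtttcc
Epor, chr9:21963605-21963650, minus strand: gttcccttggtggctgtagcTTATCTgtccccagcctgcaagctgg
Kel, chr6:41704356-41704401, minus strand: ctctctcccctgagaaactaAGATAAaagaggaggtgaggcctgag
Each piece is written 5′ to 3′ along its gene, and the match starts 86 bases before the start of Alas2, 226 before that of Epb42, 54 before that of Epor and 56 before that of Kel. Alas2 and Epb42 passed the test, while the erythropoietin receptor Epor (-1.85, adjusted p = 0.0793) and the blood group gene Kel (-3.36, adjusted p = 0.0697) did not. Among all coding genes that fell, 33 of 533 with an entry (6.19%) hold these letters, below the 8.07% of the tested genes. The palindromic CREB site TGACGTCA was found in 16 of the 533 (3.00%) and in 272 of the 9653 (2.82%), and in 0 of the 5 called CREB-responsive genes with an entry. A match is a description of letters in this window and shows no binding.

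**Figure D3:**
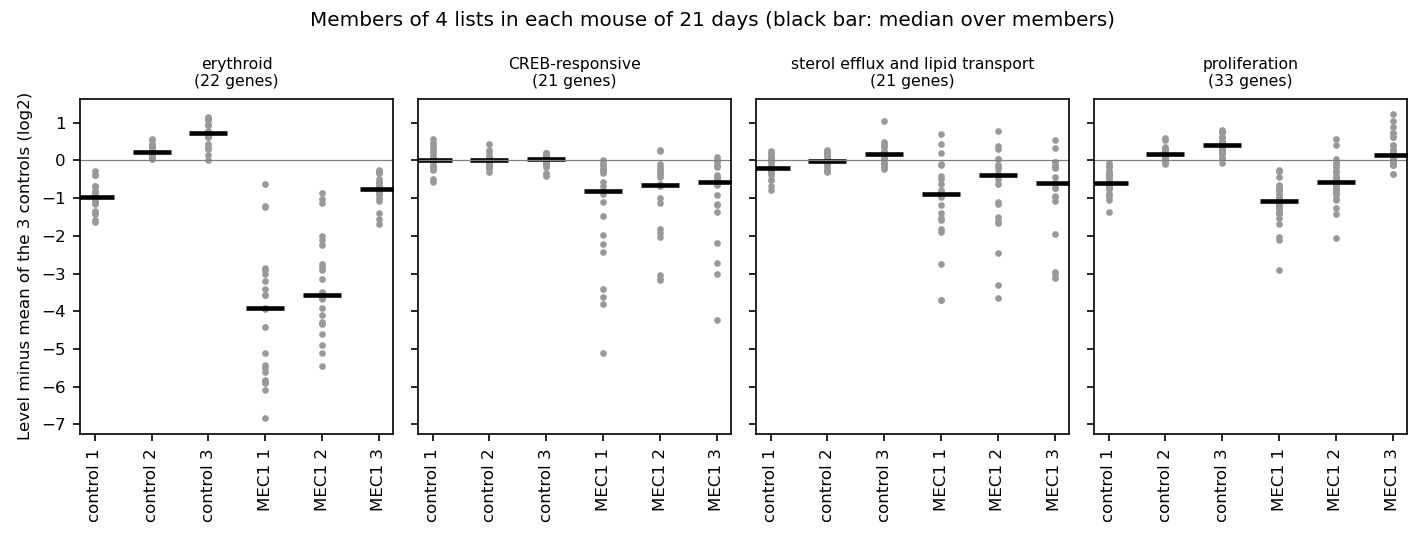
Level of each member of 4 lists in each mouse at 21 days, as log2 intensity minus the mean of the 3 controls; grey points are genes and the black bar is their median. Erythroid genes separate MEC1 replicates 1 and 2 (medians -3.93 and -3.57) from replicate 3 (-0.76), whereas the CREB-responsive medians lie between -0.81 and -0.56 in all 3 MEC1 mice.

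Lists of further cell types that the isolate could hold had 0 to 3 calls each. Of 23 neutrophil and granule genes 0 passed limma's test, with a median change of 0.11 and 4 at an unadjusted p under 0.05. Of 12 megakaryocyte and platelet genes 0 passed as well, with 6 at an unadjusted p under 0.05, and of 12 stem and progenitor genes 0, with 2. Dendritic cell genes held 3 falls among 18 tested (16.7%, against 5.49% of all coding genes, and 1 to 3 falls without 1 array): Cd209a, the plasmacytoid marker Siglech (-1.25) and the factor Irf4 (-0.86). The defining dendritic markers Flt3 and Zbtb46 did not pass. In the basophil and mast cell list 1 of 13 fell (7.69%), Ccl3, while the basophil proteases Mcpt8 and Prss34 did not pass. In the osteoclast list 1 of 6 fell (16.7%), the phosphatase Acp5, and in the stroma and endothelium list 1 of 10 (10.0%), the receptor Eng. Without 1 array these 2 lists held 0 to 3 and 0 to 1 falls.

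The lists of metabolism and stress not described above held 0 to 4 calls each. Nuclear genes of the respiratory chain (29), cytosolic ribosomal proteins (16), the proteasome (26) and heat shock chaperones (16) held 0 calls each in limma's test, with median changes of -0.19, -0.19, 0.08 and 0.01. At an unadjusted p under 0.05 the counts were 0, 1, 0 and 3. Proliferation genes held 0 calls among 33 (limma, 3 at an unadjusted p under 0.05), although 30 had a negative change. The median was -0.50 and ran from -1.08 in MEC1 replicate 1 and -0.57 in replicate 2 to 0.15 in replicate 3. Relative to genes of similar control level the median of that list was -0.05. Of 27 lysosomal genes 3 fell (11.1%), Ctsa, Ctss and the calcium channel Mcoln1. The median was -0.53, and -0.16 relative to genes of similar control level. The list's median level ran from 9.95 to 10.79 in controls. Of all coding genes at control levels of 8 to 10 and 10 to 12, 10.8% and 9.30% fell. The lysosomal count was 0 with the 6 arrays alone, and also without MEC1 replicate 1, MEC1 replicate 2, control replicate 2 or control replicate 3 (limma, with 8 to 11 negative changes at an unadjusted p under 0.05 in these 4 fits). In the unfolded protein response list 2 of 20 fell (10%, and 0 to 2 without 1 array). They are the pro-apoptotic factor Ddit3, whose 2 clusters fell by 1.73 and 1.54, and the sensor Atf6. Glucose handling was divided. Slc2a1, the glucose transporter GLUT1, rose by 1.3 (SE 0.250, adjusted p = 0.0213) from 8.81, 9.48 and 9.06 to 10.00, 10.88 and 10.38, while the hexokinases Hk3 and Hk1 and the regulator Pfkfb3 fell by 0.99, 0.90 and 0.97. After cyclic loess this list had 4 rises and 1 fall of 22, and without 1 array it had 0 to 3 falls.

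Rises were fewer and, for the most part, in dim genes. The largest was Saa3, an acute-phase serum amyloid that macrophages make, at 4.95, 4.40 and 4.18 in controls and 6.49, 7.38 and 6.76 in MEC1 mice. It rose by 2.37 (SE 0.469, adjusted p = 0.0235), a 5.16-fold difference, with a relative change of 2.30. Il1f9, the interleukin 1 family cytokine also called interleukin 36 gamma, went from 7.04, 7.27 and 6.59 to 9.26, 8.55 and 9.23 and rose by 2.05 (SE 0.488, adjusted p = 0.0408). By the rule that named these genes, their groups do not overlap. Saa3 passed in 2 and Il1f9 in 0 of the 6 fits that left out 1 array. Saa1, another serum amyloid, rose by 0.84. Of 20 genes of the interleukin 1 family and the acute phase 3 rose (15.0%, against 0.588% of all coding genes) and 1 fell, the interleukin 6 receptor Il6ra (-1.94). The list's median change was 0.34, and 15 of its genes had a positive one. The rises numbered 0 to 2 over the fits without 1 array (limma, with 3 to 5 positive changes at an unadjusted p under 0.05 in the 4 fits with 0).

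The stretch of 150 bases before the start of Saa3 is shown because this gene had the largest rise and its window holds 2 of the 6 motifs searched, the GATA letters as TTATCT and, on the opposite strand, a core of the interferon-stimulated response element (a pair of TTTC runs with any 2 bases between them), both in capitals.
Saa3, chr7:46715677-46715826, minus strand: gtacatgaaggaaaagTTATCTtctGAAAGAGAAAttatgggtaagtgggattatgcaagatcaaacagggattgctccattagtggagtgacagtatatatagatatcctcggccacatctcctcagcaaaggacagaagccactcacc
It is written 5′ to 3′ along the gene, from RefSeq (GRCm38.p6). The response element letters occur in 6 of the 60 risen genes with an entry (10.0%), in 336 of the 9653 tested genes (3.48%) and in 2.98% of all windows, and the GATA letters in 7 of the 60 (11.7%).

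U2af1, the small subunit of the splicing factor U2AF, rose by 1.91 (SE 0.334, adjusted p = 0.0146) from 8.15, 8.74 and 8.44 to 10.20, 10.57 and 10.28, and was 1 of the 8 risen genes with a control level above 8. Rbm4, a splicing regulator, rose by 1.47 in its brightest cluster and by 1.45 in a second one, but 2 further clusters, at -0.75 and -0.39, did not pass, so the gene's direction depends on the cluster. Tgm1, a transglutaminase, rose by 1.55 (SE 0.191, adjusted p = 0.00367) and Camk2d, a calcium-dependent kinase, by 1.39 (SE 0.176, adjusted p = 0.00417), both from levels near 5. Efna5, a ligand of Eph receptors, the tubulin gene Tubg2, Hnrnpa1l2-ps2, which is named for a pseudogene, and the defensin Defb39 rose by 1.32, 1.29, 1.26 and 1.26. The 6 rises that held in all 12 fits were Cd300lf, Pax5, Camk2d, Rbm4, Tgm1 and Pilra.

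Pax5, the factor that commits cells to the B lineage, was 4.77, 4.74 and 4.67 in controls and 6.16, 6.12 and 5.91 in MEC1 mice and rose by 1.34 (SE 0.165, adjusted p = 0.00367). Ebf1, which acts upstream of it, rose by 0.98, from 3.70, 3.66 and 3.73 to 4.84, 4.76 and 4.43. It lay below the array median on all 3 controls, so it was tested only through the MEC1 arrays. These were the 2 called genes of 11 in the B lineage list (18.2%), whose median change was 0.29. The list's median level ran from 4.30 to 4.46 in controls and from 4.43 to 4.90 in MEC1 mice. Ms4a1 (CD20) stood at 3.54 to 3.79 in controls and 3.90 to 3.97 in MEC1 mice, below the array median on every array, and Cd79a lay above it on 2 of 6 arrays, so neither was tested. The part of B cell RNA in the rises of Pax5 and Ebf1 was not tested. In the list of T and natural killer cell genes Eomes and Tbx21, 2 related T-box factors, rose by 0.86 and 0.92. They are 22.2% of the 9 tested, against 0.588% of all coding genes, and each rose from a level near or below the array median. Eomes lay below it on all 3 controls and was tested only through its MEC1 arrays. Without MEC1 replicate 3 the B lineage list held 3 rises, and without any other array 1, and the T and natural killer list held 2 and 1 in these fits.

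Stefins, small inhibitors of cysteine proteases encoded side by side on chromosome 16, did not pass at this stage. Of 9 stefins and cystatins tested 0 passed in limma (2 at an unadjusted p under 0.05) and 7 had a positive change, with a median of 0.61, led by Stfa2l1 at 0.97 (4.0, 4.13 and 3.99 in controls, 5.31, 5.20 and 4.52 in MEC1 mice, adjusted p = 0.137) and Cstdc4 at 0.87 (adjusted p = 0.0962). The 2 negative changes were those of Cstb on chromosome 10 (-0.33) and Cst3 on chromosome 2 (-0.43). Both are outside the chromosome 16 group, as is Cst7 on chromosome 2 (0.75). Genes of the chromosome 16 group are close copies of each other, so the value of a single member is uncertain.

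**Figure D4:**
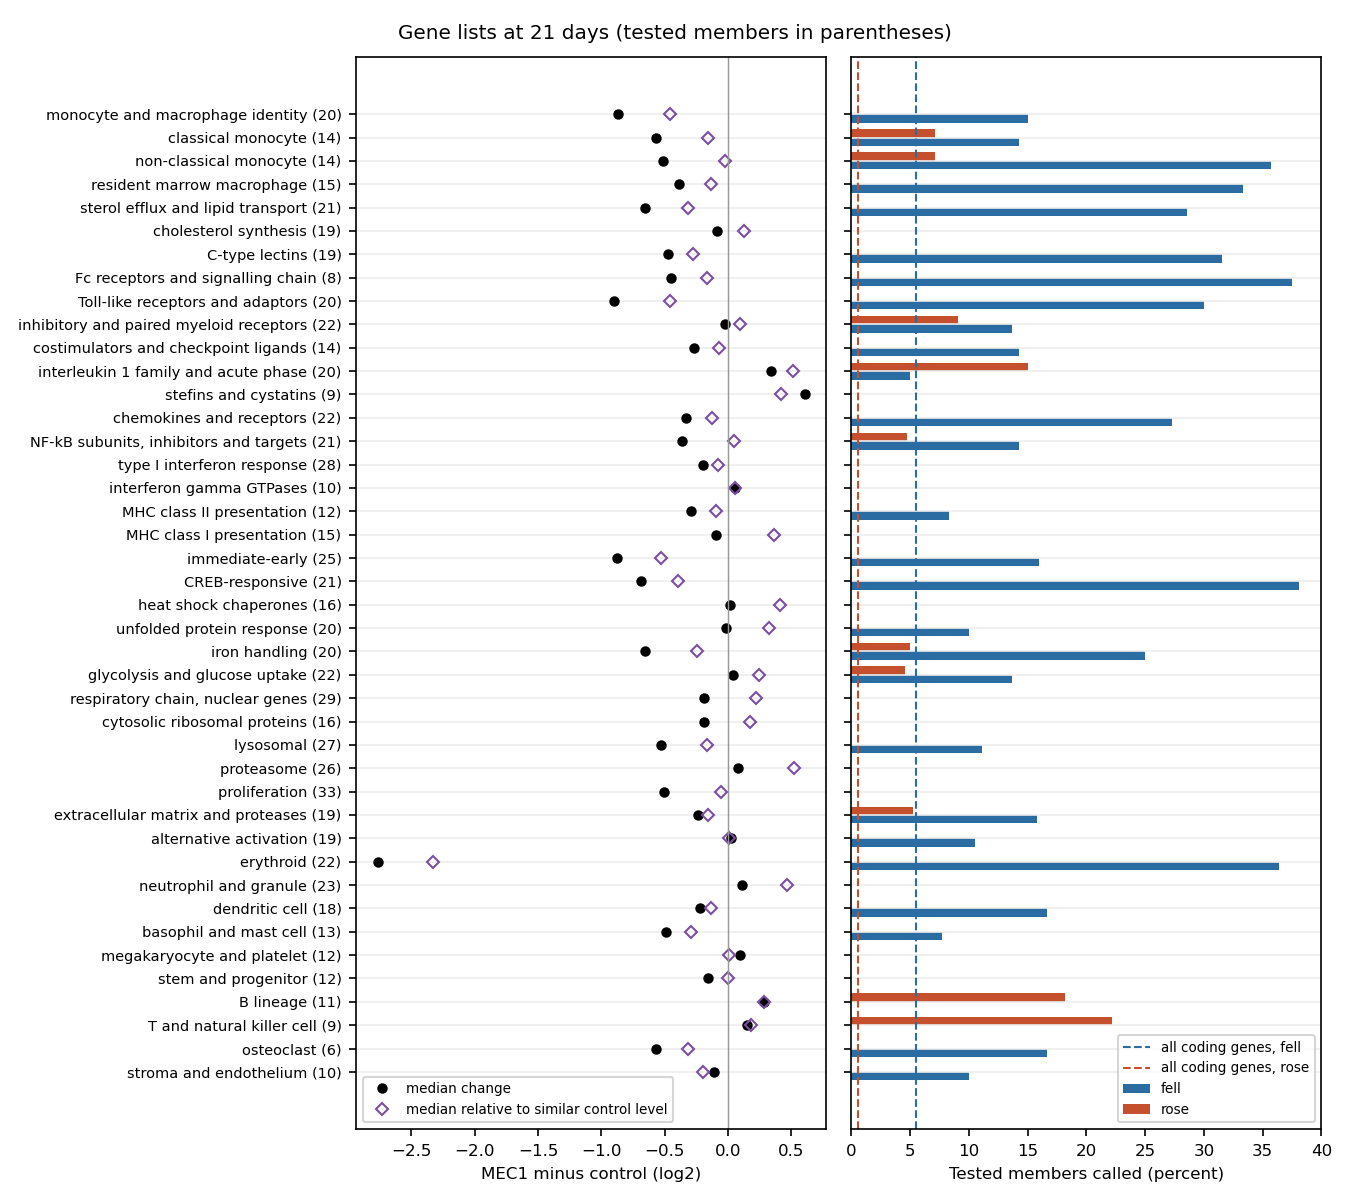
Gene lists at 21 days: on the left the median log2 change of the tested members (black dots) and the median relative to genes of similar control level (open diamonds), on the right the percent of members that fell (blue) or rose (red), with dashed lines at 5.49% and 0.588%, the shares over all coding genes tested. Erythroid genes have the lowest median at -2.77, and the CREB-responsive list has the highest share of falls at 38.1%. The dashed lines take no account of control level, and the lists were written with earlier results of these data known.

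Set against genes of similar level, the medians of several lists were nearer to 0. The median of the sterol efflux list went from -0.65 to a relative value of -0.31, that of the Toll-like receptors from -0.90 to -0.46, that of the CREB-responsive genes from -0.69 to -0.40 and that of the immediate-early genes from -0.87 to -0.53. After cyclic loess these 4 lists held 7, 5, 8 and 7 falls. For the proteasome and the MHC class I genes the relative median was positive, at 0.52 and 0.36, where the plain one was 0.08 and -0.10. The largest relative falls among named genes were those of Aqp1 (-4.16), Thbs1 (-3.76), Slc4a1 (-3.64), Cd209a (-3.09) and Cyp27a1 (-3.02), and the largest relative rises those of Il1f9 (2.38), U2af1 (2.36) and Saa3 (2.30).

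At 31 days, in other mice, most of the early changes were also called. Of the 644 genes that had fallen at 21 days, 586 were called lower at 31 days, where 42.9% of all coding genes tested were, and of the 69 that had risen 64 were called higher, against 10.5%. The 2 comparisons share no mice but share 1 estimate of spread. The change was larger at 31 days in 431 of the 644 falls. The same share was not counted over all coding genes, whose median change was -0.47 at 31 days and -0.16 at 21 days. Saa3 had a change of 6.04 at 31 days against 2.37 at 21 days, Vcan 3.82 against 1.62 and Pax5 2.23 against 1.34. For none of them did the difference between the days' effects pass in limma's test (adjusted p = 0.1805, 0.1805 and 0.3313).

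Some early falls were not called at 31 days, 57 of the 644, and 1, Clec4d, was called in the other direction. Vegfa had a change of -1.5 at 21 days and -0.28 at 31 days, Cd86 -2.31 and -0.80, Cd83 -2.06 and -0.66, and Cd14 -1.26 and -0.70. In each of these genes the controls of 31 days lay below those of 21 days. At 31 days Vegfa read 8.42, 8.35 and 8.62 in controls and 8.2, 8.1 and 8.25 in MEC1 mice. Cd86 then read 8.04, 8.73 and 8.78 against 7.65, 8.14 and 7.37. The difference between the control groups was not tested here. Errfi1, an inhibitor of the EGF receptor, had -1.23 and 0.00, and Rasgef1b, an exchange factor induced by Toll-like receptor signals, -2.40 and -0.40. Nlrp3, the sensor of the inflammasome, had -2.13 at 21 days and -1.26 at 31 days. Clec4d, which encodes the lectin MCL, went the other way, with a change of -1.68 at 21 days and of 1.56 at 31 days (adjusted p = 0.00401). Being called on one day and not on the other is no test of a difference, and the difference between the days' effects, tested in the same limma fit, did not pass for any of these 8 genes. It was 3.24 for Clec4d (adjusted p = 0.0809) and 1.22 for Vegfa (adjusted p = 0.116). Of all coding genes 1 passed (0.00852%), and 1959 (16.7%) had an unadjusted p under 0.05.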

How the data were processed

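RNA of purified marrow monocytes and macrophages had been read on the mouse Clariom D array, 1 array per mouse. The deposited values are log2 intensities that the authors summarised per transcript cluster. The submitters' processing notes name Affymetrix Expression Console and the RMA method. The array medians of the early comparison still differed, from 3.82 to 4.2, and the highest deposited value was 19.93. How the arrays had been scaled to each other is therefore unsettled, and the sizes of the changes depend on it. Versions, genome build and array annotation are not given in the sources used here, and scanner files were not used here. Their number, 3 arrays per group, limits the precision. The labels give no scan batch.

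After 6732 control features were set aside, 65956 clusters remained, of which 31258 had 1 symbol in the platform's gene table, 1492 several and 33206 none. Symbols were updated, and coding genes identified, through a RefSeq table. limma 3.58.1 in R 4.3.3 fitted the means of the 4 groups to the 33457 clusters tested, with p-values two-sided and adjusted by Benjamini-Hochberg at a threshold of 0.05. The script was tested on simulated data. Gene lists are described by counts and medians, with no test of a list. Relative changes used the 500 coding genes nearest in control level.

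The members and the 44 gene lists were chosen with earlier results of these data known. Named genes were called coding genes with groups that do not overlap: the 15 largest changes each way, the 8 largest relative changes each way, and up to 4 members of each list by p. Fixed identity genes and the stefins were added. Other genes were named after their values were seen, including further called list members, genes called in all 12 fits and genes not called at 31 days.

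Alternatives were other filters, quantile normalization, median centring, cyclic loess, array weights, trend and robust moderation, the hybridisation-control covariate, a replicate block, averaged clusters, a 1.5-fold minimum, the 6 arrays alone, and leaving out each array. Promoter windows of 250 bases came from RefSeq (GRCm38.p6), searched on both strands for 6 motifs.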

Additional observations from a re-analysis of the deposited data

How the results depend on the processing

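The counts of coding genes changed (713), risen (69) and fallen (644) at 21 days kept more falls than rises under all alternatives but 1, and their size varied. With 1 array of 21 days left out they ran from 148 to 1289 changed, 10 to 131 risen and 130 to 1158 fallen. The 6 arrays alone gave 198, 16 and 182, and with their own quantile normalization 129, 30 and 99. Quantile normalization of all arrays gave 368 changed and 283 fallen, centring on the array median 30 risen, and cyclic loess 122 risen. Array weights gave 5689, 1285 and 4404. Without MEC1 31 d replicate 3, which enters only through the spread, they were 1178, 133 and 1045. The hybridisation-control level as a covariate, where rises outnumbered falls, gave 2, 2 and 0.

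The deviations of same-numbered mice from their group means had correlations of 0.378, -0.179 and 0.429. Those of differently numbered mice ran from -0.506 to 0.344. These values do not settle whether the numbers pair the mice, and the main fit treats them as unpaired. A replicate block gave 403 changed, 27 risen and 376 fallen coding genes.

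Differences of whole arrays depend on scaling by construction. After quantile normalization hybridisation controls differed by 1.37, poly-A controls by 0.925 and mitochondrial transcripts by -0.271. After centring the first 2 were 0.905 and 0.443.

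Of the 88 named genes called, 77 were still called after cyclic loess, 65 after quantile normalization, 45 with the 6 arrays alone, and 36 without MEC1 replicate 1 as well as without MEC1 replicate 2. Without control replicate 2 or 3 it was 39, without control replicate 1 it was 68, and without MEC1 replicate 3 it was 86. No called named gene changed its direction under these settings. The covariate fit was run for the counts alone. Some list medians near 0 changed sign: that of the respiratory chain was 0.044 after cyclic loess, and that of neutrophil and granule genes -0.087 after centring. Without a covariate that varies within groups, a shift of whole arrays and a change of the cells cannot be told apart here. The cause of these differences between settings was not tested.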
